A study of Mus musculus with 15 samples.

Results

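The 2 control lines of a study on Smarcd1 were compared with each other, an empty vector line (EV) and a scrambled hairpin line (shScr), both made from 6DT1, a mouse mammary carcinoma cell line that arose in a Myc-driven tumor. The comparison took all 13142 genes of the transcript table and 6 of the 15 libraries, 3 per line. Both lines are labelled wildtype and untreated, and neither carries a construct directed at Smarcd1. EV received a lentiviral expression vector without insert and was selected and kept in 5 µg/ml blasticidin, whereas shScr received a lentiviral vector with a scrambled short hairpin and was kept in 10 µg/ml puromycin. The other 9 libraries came from a Smarcd1 overexpression line (OE), built and selected like EV, and from the Smarcd1 knockdown lines KD4 and KD6, built and selected like shScr. All cells grew as a monolayer, and RNA was extracted 24 h after plating at 70% confluence. Replicates were plated from different passages of one transduced line, so p values measure the spread between passages, and whether a line was a pool or a clone is not stated. Vector, hairpin, drug, transduction and the history of the line differ together between EV and shScr and cannot be told apart.

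EV is the reference for the overexpression line and shScr the reference for the knockdown lines, and the comparison asked how far these references differed from each other. Blasticidin and puromycin both block protein synthesis at the ribosome, and resistance to them comes from a deaminase and an acetyltransferase, respectively. Among the cell programs followed below, cholesterol synthesis is switched on by SREBP transcription factors when sterols in the endoplasmic reticulum (ER) run low, the unfolded protein response raises ER chaperones when unfolded proteins build up there, and p53 drives cell cycle brakes and its own inhibitor Mdm2. No SREBP, ER stress or p53 activity was measured, only messenger RNA.

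EV and shScr differed in 1573 of 13142 genes, 12% of those tested, at an adjusted p under 0.05 (limma on log2(CPM + 1), where CPM is the depth-scaled count unit of the files). Of these, 950 genes (7.23%) were higher in EV and 623 (4.74%) were higher in shScr. Most differences were small: 501 of the 1573 exceeded 1.5-fold and 111 exceeded 2-fold on the log2(CPM + 1) scale, which understates changes of weakly expressed genes. Across all genes the median log2 difference was 0.016, and in 5111 genes (38.9%) the 3 EV and the 3 shScr values did not overlap. Leaving out EV replicate 1, 2 or 3 gave 897, 975 and 420 genes, and leaving out shScr replicate 1, 2 or 3 gave 527, 855 and 668. Scaling by the median of ratios kept 1416 of the 1573 calls but turned the split to 793 higher in EV and 896 higher in shScr, so the balance of directions depends on the scaling. On the same table OE differed from EV in 0 genes by limma (0%, with 1567 genes at an unadjusted p under 0.05), KD4 from shScr in 704 (5.36%) and KD6 from shScr in 239 (1.82%). These last comparisons share the EV or shScr libraries.

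Listed genes together held 862977 to 902115 CPM per library. Mitochondrially encoded transcripts took 5.93% to 6.49% of that sum in EV and 4.66% to 5.90% in shScr. The first principal component held 56.3% of the variance and separated the lines, with EV replicate 1 farther out (-27.2) than EV replicates 2 and 3 (-10.4 and -14.5) and shScr between 12.7 and 21.9. Read depth was not given, so no counting error could be computed. As a check of the labelled cell type, 6 of 22 luminal marker genes were listed. Of these, Cd14 was called higher in EV and Gata3 higher in shScr (values at the end). The luminal keratins Krt8 and Krt18 were listed at 361 ± 47.1 CPM and 384 ± 31.8 CPM in EV and 384 ± 26.1 CPM and 315 ± 21.4 CPM in shScr (mean ± SD, n = 3), with no call for either. The epithelial genes Epcam and Cdh1, the keratins Krt5 and Krt14, and the immune gene Ptprc were not found by symbol among the genes of the table, whose transcripts all averaged 1 CPM or more (geometric mean). Of 18 immune marker genes 1 was listed, the lysosomal protein Cd68, with 60.5, 62.6 and 62.8 CPM in the EV libraries and 33.8, 32.3 and 38.8 CPM in the shScr libraries (log2 difference 0.81 ± 0.08 (SE), adjusted p = 0.0016). Of 8 adipocyte markers 1 was listed, the lipase Lpl (log2 difference 0.65 ± 0.13 (SE), adjusted p = 0.018). Whether other cells or RNA quality had a part in any difference was not tested, and in bulk RNA fewer cells of a type and less RNA per cell cannot be told apart.

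Smarcd1 (ENSMUSG00000023018), a subunit of the BAF chromatin remodeling complex and the gene manipulated elsewhere in the study, was itself higher in EV. Its single listed transcript measured 32.4, 26.98 and 28.8 CPM in the EV libraries and 14.1, 17.03 and 14.7 CPM in the shScr libraries, without overlap. The mean was 1.92-fold higher in EV (log2 difference 0.90 ± 0.10 (SE), adjusted p = 0.0026). The other lines measured 38.3, 37.4 and 36.4 CPM in OE, 8.32, 7.21 and 8.76 CPM in KD4 and 12.2, 14.3 and 13.1 CPM in KD6. EV averaged 29.4 and shScr 15.3 CPM. KD4 differed from shScr by the test (log2 difference -0.84, adjusted p = 0.0065), and KD6 did not pass (-0.20, adjusted p = 0.47). Differences between EV and shScr in other genes therefore come together with a difference in Smarcd1, and these cannot be told apart. Of the 26 measured genes of BAF complexes, 3 were higher in EV (Smarcd1, Dpf2 and Bcl7c) and the DNA-binding subunit Arid1a was higher in shScr (-0.40 ± 0.10, adjusted p = 0.042). The share that passed was 15.4%, against 12% of all genes. Other scalings moved these counts to 2 and 2 (median of ratios) or 1 and 2 (quantiles), and of Smarcd1, Dpf2, Bcl7c and Arid1a only Smarcd1 kept its call with any library left out. Counts with 1 library left out were 1 to 2 for genes higher in EV (1 without EV replicate 1 or 3 or shScr replicate 1 or 3) and 0 to 1 for genes higher in shScr (0 without EV replicate 1, 2 or 3 or shScr replicate 1 or 3).

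Lcn2 showed the widest gap in favor of EV among the genes that passed, and 14 such genes were named by this rule. Lcn2, which encodes the iron-siderophore binding protein lipocalin 2, measured 45.6, 24.5 and 59.6 CPM in the EV libraries and 1.28, 1.04 and 0.00835 CPM in the shScr libraries. All EV libraries were high and all shScr libraries were near zero (log2 difference 4.63 ± 0.37 (SE), adjusted p = 0.00075). Gpnmb, a transmembrane glycoprotein of lysosomes and melanosomes, measured 311, 308 and 437 CPM in the EV libraries and 33.7, 22.1 and 24.1 CPM in the shScr libraries. This was a 13.2-fold higher mean in EV (log2 difference 3.68 ± 0.18 (SE), adjusted p = 0.00016), and it was the gene with the smallest p of the table. Cp, encoding the copper-carrying ferroxidase ceruloplasmin, measured 18.6, 29.7 and 31.9 CPM in the EV libraries and 6.63, 0.822 and 2.27 CPM in the shScr libraries (log2 difference 2.92 ± 0.45 (SE), adjusted p = 0.0081). The zinc finger gene Zfp704 was 4.02-fold higher in EV, with 36.8, 32.2 and 43.2 CPM in the EV libraries and 8.48, 10.1 and 9.33 CPM in the shScr libraries (log2 difference 1.89 ± 0.12 (SE), adjusted p = 0.00037).

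Pltp, the phospholipid transfer protein of plasma lipoproteins, measured 47.9, 34.8 and 22.3 CPM in the EV libraries and 12.6, 10.8 and 8.75 CPM in the shScr libraries (log2 difference 1.57 ± 0.24 (SE), adjusted p = 0.0085). Ldhd, a mitochondrial D-lactate dehydrogenase, Sardh, a sarcosine dehydrogenase, and Alpl, tissue-nonspecific alkaline phosphatase, were 4.35-, 3.61- and 4.07-fold higher in EV, with adjusted p of 0.0016, 0.0019 and 0.0037. Rgl1, an exchange factor for Ral GTPases, was 4.15-fold higher and Dennd2a, of the DENN family of Rab regulators, was 3.77-fold higher (adjusted p = 0.0015 and 0.012). The adenosine receptor gene Adora1 and the GTPase gene Rab43 also passed (2.15 ± 0.56, adjusted p = 0.043 and 1.79 ± 0.37, adjusted p = 0.023), as did the immediate early genes Fos and Fosb (1.67 ± 0.35, adjusted p = 0.024 and 1.63 ± 0.30, adjusted p = 0.015). Fos measured 21.4, 8.74 and 6.73 CPM in the EV libraries and 3.28, 1.94 and 3.2 CPM in the shScr libraries, with EV replicate 1 above the other EV libraries. Calls lost with 1 library left out were those for Adora1 (any library but EV replicate 1), Rab43 (EV replicate 2 or 3, shScr replicate 1 or 3), Fos (any shScr replicate) and Fosb (EV replicate 3). The remaining genes named here and in the paragraph before kept theirs with any library left out. Lcn2, Cp, Rgl1, Adora1, Rab43, Fos and Fosb differed by less in the separate gene tables (values at the end).

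Col5a3, a fibrillar collagen chain, showed the widest gap in favor of shScr, with 100.03, 67.4 and 105 CPM in shScr and 15.9, 17.9 and 13.98 CPM in EV. The mean was 5.7-fold higher in shScr (log2 difference -2.42 ± 0.16 (SE), adjusted p = 0.00043). Mal, a lipid raft protein of apical transport, measured 8.31, 5.91 and 4.78 CPM in shScr and 1.02, 1.98 and 1.73 CPM in EV (log2 difference -1.50 ± 0.21 (SE), adjusted p = 0.0054). Inhbb, which encodes the beta B subunit of activins and inhibins, measured 14.4, 20.01 and 21.2 CPM in shScr and 8.14, 6.41 and 4.6 CPM in EV (log2 difference -1.42 ± 0.20 (SE), adjusted p = 0.0059), and Lamb3, a chain of laminin 332 in epithelial basement membranes, measured 78.4, 75.9 and 87.6 CPM in shScr and 27.9, 37.5 and 28.1 CPM in EV (log2 difference -1.35 ± 0.12 (SE), adjusted p = 0.0011). In each of these 4 genes the 3 shScr libraries lay above the 3 EV libraries. Sbsn, encoding the epidermal protein suprabasin, Neurl1b, a ubiquitin ligase of the Notch ligand pathway, and Ogdhl, an oxoglutarate dehydrogenase-like enzyme, were 2.27-, 2.34- and 2.65-fold higher in shScr (adjusted p = 0.0073, 0.0028 and 0.0097). The sodium-activated potassium channel gene Kcnt1, the tight junction gene Cgn and the scaffold gene Iqgap2 passed as well (-1.52 ± 0.40, adjusted p = 0.043, -1.18 ± 0.27, adjusted p = 0.031 and -1.14 ± 0.22, adjusted p = 0.018). On leaving out 1 library, Kcnt1 lost its call without EV replicate 2 or 3 or shScr replicate 2 or 3, Cgn without EV replicate 2 or any shScr replicate, and Iqgap2 without EV replicate 3 or shScr replicate 1 or 3. In the gene tables the Kcnt1 means were close (14.2 and 15.1 CPM in EV and shScr). The other genes of this rule, Psmb8, Insig1, Calr and Cyp51, belong to the groups described next.

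**Figure D1:**
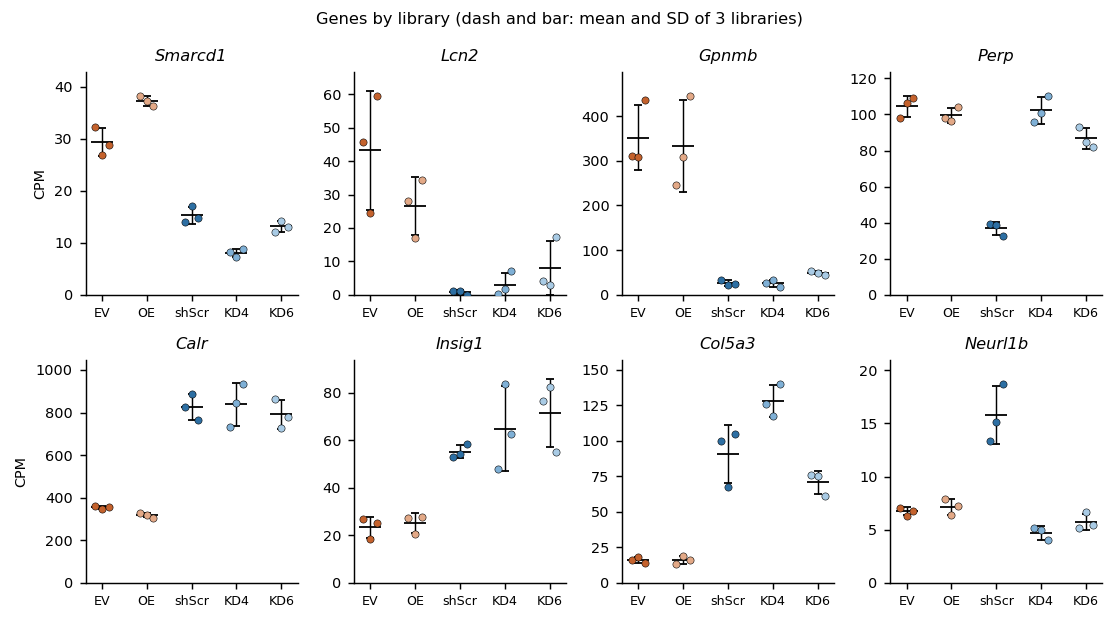
CPM of 8 genes in each of 15 libraries, 3 per line; points are libraries, dashes are means and bars are SD. Smarcd1, Lcn2 and Gpnmb were high in EV and OE, Calr, Insig1 and Col5a3 were high in shScr, KD4 and KD6, while in Perp (low) and Neurl1b (high) shScr stood apart from the other 4 lines.

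Several genes of cholesterol synthesis were higher in shScr. Of 27 measured genes of cholesterol and fatty acid synthesis, 12 were higher in shScr and 0 in EV, and 24 of the 27 had a higher mean in shScr. Their median log2 difference was -0.43, against 0.016 for all genes, of which 4.74% were higher in shScr. Insig1, an ER protein that retains the SREBP complex, measured 53.1, 54.4 and 58.2 CPM in shScr and 26.7, 18.3 and 25.1 CPM in EV. All shScr values were above all EV values, a 2.36-fold difference of means (log2 difference -1.22 ± 0.13 (SE), adjusted p = 0.002). Cyp51, the lanosterol demethylase, measured 81.4, 81.4 and 69.3 CPM in shScr and 38.2, 28.4 and 43.5 CPM in EV (log2 difference -1.07 ± 0.14 (SE), adjusted p = 0.0051). Stard4, a cytosolic sterol carrier, measured 53.3, 51.1 and 52.1 CPM in shScr and 30.2, 19.6 and 28.6 CPM in EV (log2 difference -0.99 ± 0.14 (SE), adjusted p = 0.0064).

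Other genes that passed act along the pathway. Idi1, Fdps, Sqle and Lss, enzymes between the isoprenoid precursors and lanosterol, were 1.58-, 2.01-, 1.26- and 1.63-fold higher in shScr, with adjusted p from 0.0085 to 0.042. Srebf2, the gene of the SREBP that drives this pathway, measured 135, 146 and 199 CPM in shScr and 116, 91.8 and 112 CPM in EV (log2 difference -0.57 ± 0.15 (SE), adjusted p = 0.041). In fatty acid desaturation, Scd2 was 1.64-fold higher in shScr (-0.72 ± 0.11, adjusted p = 0.0075). Neither Fasn, the fatty acid synthase gene (-0.14 ± 0.10, adjusted p = 0.34), nor Srebf1 (-0.11 ± 0.13, adjusted p = 0.58) passed. The count was 7 to 14 when 1 library was left out (7 without EV replicate 3 or shScr replicate 3). The 9 libraries of the other lines, which share no library with EV and shScr, gave a median of -0.49 for OE minus the mean of KD4 and KD6. Here 15 of 27 genes were higher in KD and 0 higher in OE. Over all genes the median was 0.0069, and 6.43% were called in either direction. Cyp51, for example, averaged 36.1 ± 5.06 CPM in OE, 99.5 ± 24.8 CPM in KD4 and 94.7 ± 8.66 CPM in KD6. In all 12 genes that passed, the OE mean lay nearer to EV and the KD4 and KD6 means nearer to shScr.

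Several chaperones of the ER lumen were also higher in shScr. Of 27 measured genes of the unfolded protein response and chaperones, 10 were higher in shScr and 0 in EV, and the median log2 difference of the list was -0.06, against 0.016 for all genes, of which 4.74% were higher in shScr. Calr, the calcium-binding lectin chaperone calreticulin, which also serves the loading of MHC class I and was counted with that list, measured 826, 885 and 764 CPM in shScr and 359, 347 and 358 CPM in EV. The shScr mean was 2.33-fold higher (log2 difference -1.21 ± 0.07 (SE), adjusted p = 0.00028). Hspa5, the ER Hsp70 chaperone BiP, measured 884, 884 and 845 CPM in shScr and 586, 492 and 519 CPM in EV (log2 difference -0.71 ± 0.08 (SE), adjusted p = 0.0023). Hsp90b1, the ER Hsp90 chaperone GRP94, measured 1146, 982 and 919.6 CPM in shScr and 575, 551 and 561 CPM in EV (log2 difference -0.85 ± 0.09 (SE), adjusted p = 0.0019). Pdia6, a protein disulfide isomerase, measured 256, 260.1 and 250.4 CPM in shScr and 174, 151 and 149 CPM in EV (log2 difference -0.69 ± 0.07 (SE), adjusted p = 0.0019). In all 4 genes the lines did not overlap, and all 4 calls held with any library left out.

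The other members that passed were Manf, Sdf2l1, Creld2, Pdia4, Hyou1, Herpud1 and the transcription factor gene Xbp1, which acts in the unfolded protein response. Manf, a secreted ER stress protein, was 1.46-fold higher in shScr (-0.54 ± 0.06, adjusted p = 0.0023), Xbp1 1.67-fold (-0.73 ± 0.10, adjusted p = 0.0062) and Hyou1 1.2-fold (-0.27 ± 0.07, adjusted p = 0.038). Of the other genes on the list, the cytosolic chaperones Hspa8, Hsp90aa1 and Hsp90ab1 did not pass (0.05 ± 0.08, adjusted p = 0.68, -0.13 ± 0.09, adjusted p = 0.34 and -0.03 ± 0.08, adjusted p = 0.82), nor did the sensor genes Atf6 and Ern1 (0.20 ± 0.06, adjusted p = 0.053 and 0.22 ± 0.08, adjusted p = 0.12). In the fits with 1 library left out 7 or 8 genes passed. In the independent libraries of OE, KD4 and KD6, 9 genes of the list were higher in KD and 1 was higher in OE. That comparison called 6.43% of all genes in either direction. The list median of OE minus KD was 0.02, of the opposite sign to that of EV minus shScr. Calr averaged 319 ± 11.5 CPM in OE, 838 ± 102 CPM in KD4 and 792 ± 68.99 CPM in KD6, and Hspa5 478 ± 36.4 CPM, 896 ± 105 CPM and 878 ± 23.1 CPM.

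The ER stress response element (ERSE) is a promoter motif through which ATF6 and XBP1 act with NF-Y: CCAAT, 9 unspecified bases and CCACG. It was searched on both strands in RefSeq promoter windows of build GRCm38.p6, from 250 bases before to 50 after each transcription start. It was found in 0.119% of all windows, and in 13 of the 7680 genes of the table with a window (0.169%). Of the 10 genes of the unfolded protein response list that were higher in shScr, 8 had a window, and 4 of these 8 held the element. Sdf2l1, Xbp1, Pdia4 and Herpud1 had a window without it, and Manf and Hyou1 had no window. Among the 672 genes with a window that were higher in EV the element was found in 0. Among the 252 higher in shScr it was found in 5, namely Calr, Hsp90b1, Hspa5, Pdia6 and Creld2. The stretches below show these matches with 30 bases on each side, all before the start, 5′ to 3′ on the strand of the gene. Capitals mark the element, which in Calr, Creld2 and the second Hsp90b1 stretch reads on the opposite strand. Dnajc3, an ER co-chaperone that did not pass (0.09 ± 0.07, adjusted p = 0.4), is shown because it carries the element as well.
Calr: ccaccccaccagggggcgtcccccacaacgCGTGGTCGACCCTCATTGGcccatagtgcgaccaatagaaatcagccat
Hsp90b1 (farther from the start): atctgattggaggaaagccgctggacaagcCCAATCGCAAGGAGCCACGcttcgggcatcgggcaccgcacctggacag
Hsp90b1 (nearer to the start): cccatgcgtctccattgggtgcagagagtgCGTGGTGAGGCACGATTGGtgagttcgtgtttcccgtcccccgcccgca
Hspa5: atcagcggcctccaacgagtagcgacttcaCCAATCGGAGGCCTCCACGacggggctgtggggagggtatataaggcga
Pdia6: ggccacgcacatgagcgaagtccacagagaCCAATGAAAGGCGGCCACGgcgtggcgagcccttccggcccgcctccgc
Creld2: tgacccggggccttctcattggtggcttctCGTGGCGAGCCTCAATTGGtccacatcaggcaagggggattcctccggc
Dnajc3: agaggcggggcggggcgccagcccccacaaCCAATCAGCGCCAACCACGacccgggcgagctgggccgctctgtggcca
The stretches lie at chr8:84847045-84847123 (minus strand) for Calr, chr10:86705608-86705686 (minus strand) and chr10:86705503-86705581 (minus strand) for Hsp90b1, chr2:34771995-34772073 (plus strand) for Hspa5, chr12:17266461-17266539 (plus strand) for Pdia6, chr15:88819490-88819568 (plus strand) for Creld2 and chr14:118937797-118937875 (plus strand) for Dnajc3. The other genes of the table with an element, among them Canx (-0.17 ± 0.07, adjusted p = 0.13) and Syvn1 (-0.25 ± 0.17, adjusted p = 0.35) did not pass. A sterol regulatory element spelled TCACNCCAC was searched in the same way and matched 0 of the 16 cholesterol and fatty acid genes with a window, against 1.29% of the genes of the table, which says only that these letters were absent from those windows.

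Of 13 measured genes of MHC class I antigen presentation, 5 were higher in shScr and 1 was higher in EV, against 4.74% and 7.23% of all genes. Besides Calr, these were Pdia3, a disulfide isomerase of the peptide loading complex (1.48-fold, -0.57 ± 0.08, adjusted p = 0.0051), the immunoproteasome subunit gene Psmb8 and the class I genes H2-Q4 and H2-D1. Psmb8 measured 11.4, 11.1 and 12.4 CPM in shScr and 5.47, 2.32 and 4.3 CPM in EV (log2 difference -1.38 ± 0.22 (SE), adjusted p = 0.0089). H2-Q4 was 1.53-fold and H2-D1 1.19-fold higher in shScr (-0.59 ± 0.08, adjusted p = 0.0064 and -0.25 ± 0.07, adjusted p = 0.044), although reads of these near-identical class I genes may have been divided among them during counting. B2m, the light chain common to class I molecules, was the one higher in EV, with 357, 362 and 365 CPM in the EV libraries and 290.3, 282 and 242 CPM in the shScr libraries (log2 difference 0.42 ± 0.08 (SE), adjusted p = 0.016). The median log2 difference of the list was -0.03 and turned positive when EV replicate 2, shScr replicate 2 or shScr replicate 3 was left out (0.10, 0.01 and 0.02). Counts with 1 library left out were 4 throughout for genes higher in shScr and 0 to 1 for genes higher in EV (0 without EV replicate 3).

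**Figure D2:**
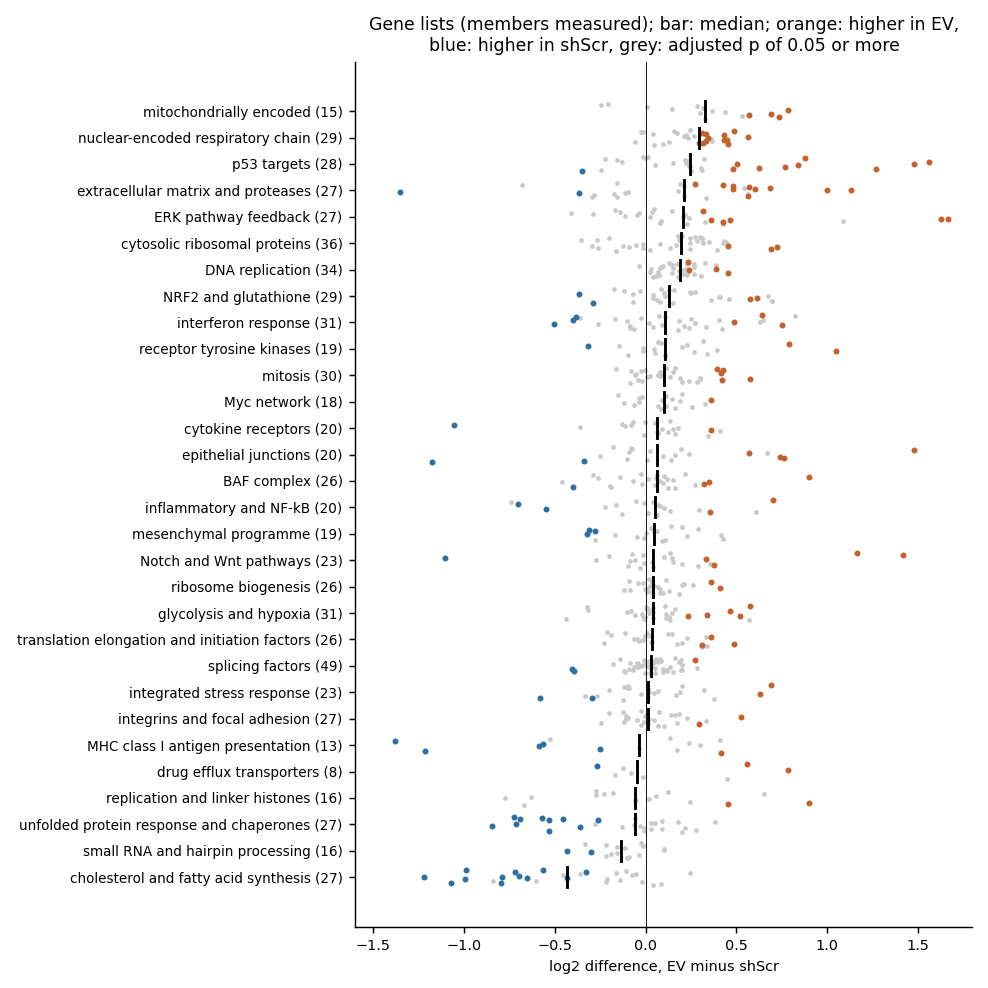
Each row is 1 of 30 gene lists with the number of measured members in brackets, and each point is the log2 difference, EV minus shScr, of 1 member; Lcn2 (4.63) lies beyond the axis. Black bars are medians, which run from -0.43 for cholesterol and fatty acid synthesis to 0.33 for mitochondrially encoded genes.

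Several targets of p53 were higher in EV. Of 28 measured genes, 9 were higher in EV and 1 in shScr, with a median log2 difference of 0.24 against 0.016 for all genes, of which 7.23% were higher in EV. Btg2, an antiproliferative gene, measured 58.3, 51.9 and 59.7 CPM in the EV libraries and 21.6, 23.01 and 24.1 CPM in the shScr libraries. The mean was 2.47-fold higher in EV without overlap (log2 difference 1.27 ± 0.08 (SE), adjusted p = 0.00037). Trp53inp1, a nuclear protein that promotes p53 function, measured 168, 139.5 and 193 CPM in the EV libraries and 92.2, 86.3 and 90.1 CPM in the shScr libraries (log2 difference 0.88 ± 0.11 (SE), adjusted p = 0.0036). Mdm2, the ubiquitin ligase that removes p53, measured 299.7, 339 and 346 CPM in the EV libraries and 237, 231 and 224 CPM in the shScr libraries (log2 difference 0.50 ± 0.07 (SE), adjusted p = 0.0058). Cdkn1a, the cell cycle inhibitor p21, measured 209, 199 and 233 CPM in the EV libraries and 115, 139 and 164 CPM in the shScr libraries (log2 difference 0.62 ± 0.12 (SE), adjusted p = 0.019). Fas, a death receptor, Pmaip1, the BH3-only protein Noxa, the cyclin gene Ccng1 and the reductase gene Dcxr passed too, with log2 differences of 0.84, 1.56, 0.48 and 0.77. The one gene higher in shScr was listed as 9630033F20Rik (-0.35 ± 0.09, adjusted p = 0.036). Trp53 itself did not pass (-0.01 ± 0.09, adjusted p = 0.97). Over the 6 fits with 1 library left out, 5 to 10 genes passed (5 without EV replicate 3). In OE against KD4 and KD6, which called 6.43% of all genes, 13 of the 28 genes were higher in OE and 0 in KD, with a median of 0.30.

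Perp, a component of desmosomes, is counted with the p53 targets above and again with the epithelial junctions below, and it differed from this pattern. It measured 98.1, 106 and 109 CPM in the EV libraries and 39.4, 38.5 and 32.8 CPM in the shScr libraries, a 2.83-fold higher mean in EV (log2 difference 1.48 ± 0.08 (SE), adjusted p = 0.00028). The other lines measured 97.8, 96.6 and 104 CPM in OE, 95.8, 101 and 110.3 CPM in KD4 and 93.1, 84.9 and 82.2 CPM in KD6, so that every library of the other lines lay above the shScr libraries. Its EV minus shScr difference exceeded the OE minus KD difference (0.08) by 1.40 log2 units (adjusted p = 2.6e-05, limma fit of all 15 libraries), the smallest p of that test. Perp shared the direction with the desmosomal genes Dsg2, Dsc2 and Jup, which were 1.69-, 1.76- and 1.5-fold higher in EV (adjusted p = 0.0062, 0.0081 and 0.015). Of 20 measured genes of epithelial junctions these 4 were higher in EV, and the tight junction genes Cgn and Cldn12 were higher in shScr. The shares over all genes were 7.23% and 4.74%. The desmosomal cadherin gene Dsc2 averaged 9.62 ± 1.42 CPM in shScr and 16.9 ± 0.908 CPM, 17.2 ± 1.27 CPM, 20.5 ± 2.04 CPM and 13.7 ± 0.791 CPM in EV, OE, KD4 and KD6. Counts with 1 library left out were 3 to 4 for genes higher in EV and 0 to 2 for genes higher in shScr (0 without EV replicate 2 or shScr replicate 1, 2 or 3, 1 without EV replicate 3).

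Several genes of the respiratory chain were higher in EV by small amounts. Of 29 nuclear-encoded genes, 12 were higher in EV and 0 in shScr, 26 had a higher mean in EV, and the median log2 difference was 0.29. Over all genes, 7.23% were higher in EV and 4.74% in shScr, and the median was 0.016. Ndufa9, of complex I, measured 44.1, 39.7 and 40.8 CPM in the EV libraries and 26.3, 29.9 and 27.2 CPM in the shScr libraries (log2 difference 0.56 ± 0.08 (SE), adjusted p = 0.0059). Atp5c1, the gamma subunit of ATP synthase, measured 203, 178 and 191 CPM in the EV libraries and 134, 148 and 133 CPM in the shScr libraries (log2 difference 0.46 ± 0.07 (SE), adjusted p = 0.0094). The others that passed, from complexes I, III, IV and V and cytochrome c (Cycs), had log2 differences from 0.29 to 0.49. With 1 library left out, 2 to 7 genes passed (2 without EV replicate 3 or shScr replicate 1, 3 without shScr replicate 3, 5 without EV replicate 1, 6 without EV replicate 2, 7 without shScr replicate 2). In OE minus KD the median was 0.01, and limma called 0 of the 29 genes. Of 15 measured genes of mitochondrial DNA, 4 were higher in EV (mt-Co3, mt-Nd3, mt-Atp8 and mt-Co2) and 0 in shScr, with a median of 0.33. mt-Co3, of cytochrome oxidase, measured 3837, 3251 and 3373 CPM in the EV libraries and 2209.6, 2369 and 1920.4 CPM in the shScr libraries (log2 difference 0.69 ± 0.11 (SE), adjusted p = 0.009). The count was 1 to 4 when 1 library was left out (1 without EV replicate 3, 2 without shScr replicate 3). Here OE against KD showed 9 genes higher in OE and 0 in KD (median 0.43). That comparison called 6.43% of all genes in either direction. The share of mitochondrially encoded genes in all CPM is given above, and the part of RNA quality was not tested.

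**Figure D3:**
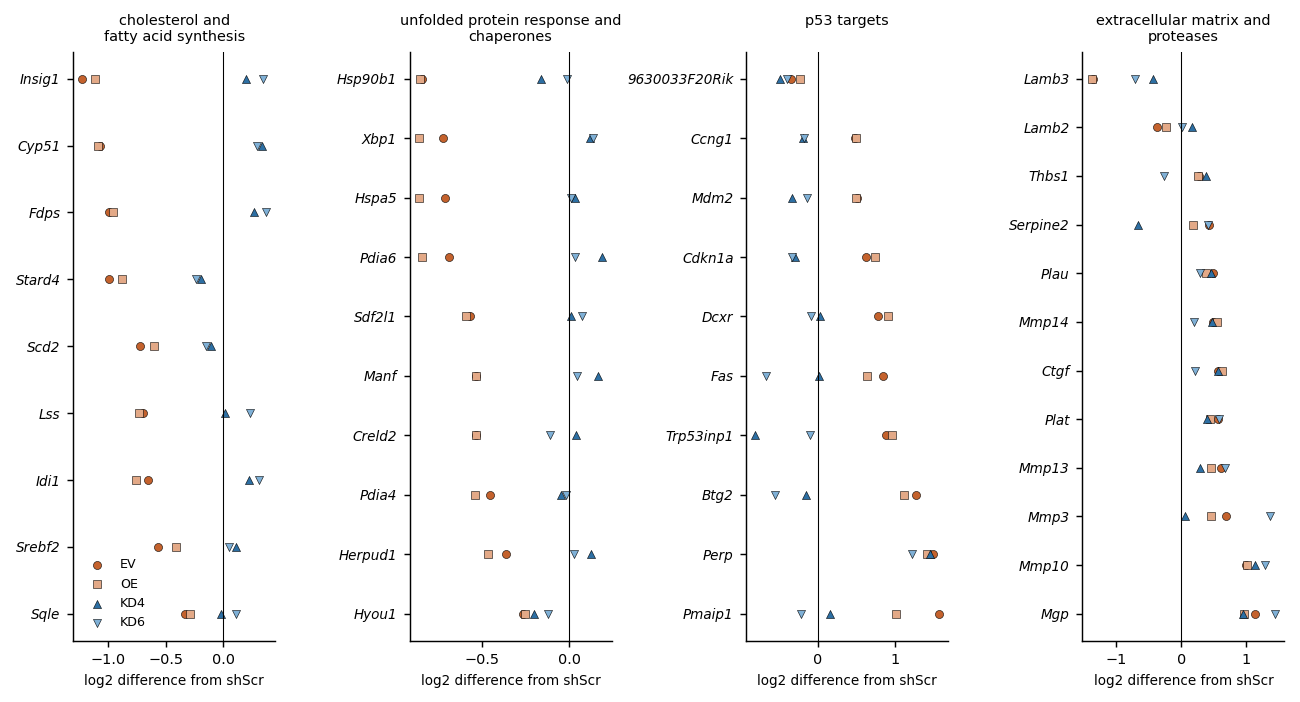
Mean log2(CPM + 1) of 4 lines minus the mean of shScr (n = 3 per line) for genes that passed in 4 lists, with 9 of 12, 10, 10 and 12 genes drawn. In cholesterol genes and ER chaperones KD4 and KD6 lay near shScr (zero line) and OE near EV, whereas in many matrix and protease genes all 4 lines lay on the same side of shScr.

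Of 27 measured genes of secreted proteases and the matrix, 10 were higher in EV, 2 (Lamb3 and Lamb2) were higher in shScr and 15 did not pass. Of all genes 7.23% and 4.74% were higher in EV and shScr. The mean was higher in EV in 17 of the 27 and higher in shScr in 10, and the median log2 difference was 0.21. The list does not hold Col5a3 (above) and the matrix protein gene Sparc (-0.33 ± 0.06, adjusted p = 0.011), which were both higher in shScr. Ctgf, a matricellular growth factor, measured 91.96, 103 and 91.7 CPM in the EV libraries and 61.6, 66.2 and 64.6 CPM in the shScr libraries (log2 difference 0.57 ± 0.07 (SE), adjusted p = 0.0036). Mmp14, a membrane-bound collagenase, measured 58.7, 60.8 and 64.3 CPM in the EV libraries and 42.5, 45.9 and 42.4 CPM in the shScr libraries (log2 difference 0.48 ± 0.07 (SE), adjusted p = 0.0062). The plasminogen activator genes Plau and Plat were 1.4- and 1.5-fold higher in EV, and the stromelysin genes Mmp10 and Mmp3 and the collagenase gene Mmp13 were 2.35-, 1.79- and 1.83-fold higher (adjusted p between 0.01 and 0.044). Mgp, an inhibitor of calcification, measured 14.02, 6.62 and 9.45 CPM in the EV libraries and 3.35, 4.95 and 3.39 CPM in the shScr libraries (log2 difference 1.13 ± 0.24 (SE), adjusted p = 0.023). Serpine2, an inhibitor of serine proteases, and Thbs1, thrombospondin 1, were the other members that passed. Over the 6 fits with 1 library left out, 3 to 7 genes were higher in EV (3 without shScr replicate 1, 5 without shScr replicate 3, 6 without EV replicate 1 or 3 or shScr replicate 2). In these fits 1 to 2 genes were higher in shScr. In OE against KD, which called 6.43% of all genes, 2 genes of the list were higher in OE and 2 in KD, and the median was -0.02. Plau, for example, averaged 125 ± 8.95 CPM in shScr, 175 ± 13.5 CPM in EV, 163 ± 14.3 CPM in OE, 172 ± 12.4 CPM in KD4 and 154 ± 9.12 CPM in KD6.

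In the Notch and Wnt pathways, 4 of 23 measured genes were higher in EV and 1 in shScr, against 7.23% and 4.74% of all genes. The Wnt ligand gene Wnt7b measured 62.5, 55.9 and 52.1 CPM in the EV libraries and 21.6, 25.2 and 27.8 CPM in the shScr libraries, 2.28-fold higher in EV (log2 difference 1.16 ± 0.11 (SE), adjusted p = 0.0013). Rfng, a glycosyltransferase that modifies Notch, measured 14.5, 12.6 and 12.1 CPM in the EV libraries and 3.16, 4.65 and 5.12 CPM in the shScr libraries (log2 difference 1.42 ± 0.16 (SE), adjusted p = 0.0023). The ubiquitin ligase gene Mib1 and the receptor gene Fzd6 were higher in EV (0.33 ± 0.06, adjusted p = 0.015 and 0.37 ± 0.09, adjusted p = 0.034), and Neurl1b was the one higher in shScr, with 13.4, 15.2 and 18.7 CPM in shScr and 7.08, 6.33 and 6.76 CPM in EV (log2 difference -1.11 ± 0.13 (SE), adjusted p = 0.0028). Counts with 1 library left out were 2 to 3 for genes of the Notch and Wnt pathways higher in EV (2 without EV replicate 3). In 4 of the 5 genes of this list that passed, the means of OE, KD4 and KD6 all lay nearer to EV than to shScr. In OE against KD, which called 6.43% of all genes, 3 genes of the list were higher in OE and 2 in KD. Among 27 genes that report ERK signaling, 6 were higher in EV and 0 in shScr: Dusp6, Etv4, Etv5, Spred3, Fos and Fosb. Dusp6, the ERK phosphatase, measured 101, 101 and 93.96 CPM in the EV libraries and 72.1, 71.4 and 75.8 CPM in the shScr libraries (log2 difference 0.43 ± 0.06 (SE), adjusted p = 0.0064). With 1 library left out, 2 to 5 genes passed (2 without EV replicate 3 or shScr replicate 1, 3 without shScr replicate 3). Under scaling by the median of ratios 2 genes of this list were called higher in shScr besides the 6.

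Both drugs act on the ribosome and the hairpin is processed by the small RNA machinery, so the genes of these systems were listed. Of 26 translation factors 3 were higher in EV (Eef2k, Eef1g and Eif4ebp1) and 0 in shScr, with a median of 0.03 against 0.016 for all genes (-0.01 under scaling by the median of ratios), and of 36 cytosolic ribosomal protein genes 3 were higher in EV (Rpl15, Rpl27 and Rpl32), where the median was 0.19. Of all genes, 7.23% were higher in EV and 4.74% in shScr. Among 8 drug efflux transporters, Abcg2 measured 104, 105 and 114 CPM in the EV libraries and 72.4, 77.3 and 68.3 CPM in the shScr libraries (log2 difference 0.56 ± 0.07 (SE), adjusted p = 0.0042) and Abcc3 measured 47.1, 36.5 and 42.6 CPM in the EV libraries and 19.8, 25.5 and 26.9 CPM in the shScr libraries (log2 difference 0.78 ± 0.13 (SE), adjusted p = 0.011), whereas Abcc5 was higher in shScr with all libraries (-0.27 ± 0.07, adjusted p = 0.038) and lost its call without any one of them. For Abcg2 and Abcc3 the means of OE, KD4 and KD6 all lay nearer to EV than to shScr. Their OE minus KD differences were 0.17 and -0.0082. The gap to EV minus shScr had an adjusted p of 0.038 and 0.023 (limma fit of all 15 libraries), a description only, since EV minus shScr is part of that test. Neither Abcb1a nor Abcb1b, the multidrug pumps, passed (0.45 ± 0.14, adjusted p = 0.072 and -0.02 ± 0.08, adjusted p = 0.9). Of 16 genes that process small RNAs and hairpins, the Argonaute genes Eif2c3 and Eif2c2 were higher in shScr (-0.44 ± 0.08, adjusted p = 0.013 and -0.30 ± 0.08, adjusted p = 0.048), and Drosha and Dicer1 did not pass (-0.19 ± 0.07, adjusted p = 0.12 and -0.04 ± 0.06, adjusted p = 0.69). The mean was higher in shScr in 14 of these 16 genes and higher in EV in 2, and the list median was -0.14. Of 31 interferon response genes, 3 were higher in EV (Ifi27l1, Xaf1 and Irf7) and 3 in shScr (Ifih1, Stat2 and Parp14). Isg15, Ifit1 and Oas1a did not pass. In OE against KD, which called 6.43% of all genes in either direction, 3 of the 31 were higher in OE and 9 in KD. Counts with 1 library left out were 0 to 2 for translation factors higher in EV (0 without EV replicate 3 or shScr replicate 1 or 2). Without shScr replicate 2, 1 translation factor was higher in shScr. Ribosomal proteins gave 0 to 4 (0 without EV replicate 3 or shScr replicate 1 or 3). Efflux genes gave 2 throughout for those higher in EV and 0 throughout for those higher in shScr (0 without EV replicate 1, 2 or 3 or shScr replicate 1, 2 or 3). Small RNA genes gave 1 to 2 (1 without EV replicate 1, 2 or 3 or shScr replicate 1 or 3). Interferon genes higher in EV gave 1 to 3 (1 without EV replicate 3 or shScr replicate 1). Interferon genes higher in shScr gave 0 to 2 (0 without EV replicate 3 or shScr replicate 1 or 3, 1 without EV replicate 2 or shScr replicate 2).

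Of 34 measured DNA replication genes, 4 were higher in EV and 0 in shScr (Mcm5, E2f2, Uhrf1 and Mcm3). The share that passed was 11.8%, against 12% of all genes (7.23% higher in EV). The list median was 0.19, and 33 of 34 means were higher in EV. Of 30 genes of mitosis 5 were higher in EV: Plk1, Prc1, Ccnb2, Ccna2 and Kif20a. Plk1, a mitotic kinase, measured 37.4, 35.2 and 37.1 CPM in the EV libraries and 25.8, 28.4 and 26.5 CPM in the shScr libraries (log2 difference 0.43 ± 0.07 (SE), adjusted p = 0.011). With 1 library left out, 0 to 2 replication genes were higher in EV. Their count was 0 without EV replicate 3 or shScr replicate 1 or 3, 1 without EV replicate 1 or shScr replicate 2 and 2 without EV replicate 2. For mitosis genes higher in EV it was 0 to 5 (0 without EV replicate 3, 2 without shScr replicate 3, 3 without EV replicate 1 or shScr replicate 1 or 2). For glycolysis and hypoxia genes higher in EV it was 0 to 4 (0 without EV replicate 3, 1 without shScr replicate 1 or 3, 2 without EV replicate 1, 3 without shScr replicate 2). Without EV replicate 1, 2 glycolysis and hypoxia genes were higher in shScr. Among 31 genes of glycolysis and hypoxia, 5 were higher in EV (Pdk1, Vegfa, Gapdh, Hk1 and Gpi1) and 0 in shScr, but the median of 0.04 fell to -0.01 under quantile normalization.

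OE was made and selected like EV, and KD4 and KD6 like shScr, so these 9 libraries, which share none with EV and shScr, gave a separate measure of lines under the 2 drugs, with Smarcd1 differing by design. OE minus the mean of KD4 and KD6 differed from zero in 845 genes (6.43%). Of the 1573 genes that differed between EV and shScr, 1236 (78.6%) had the same sign in OE minus KD, against 63.4% of all genes. Among the 1573, 299 (19.0%) were called with the same sign and 5 with the opposite sign. Among all genes, 699 (5.32%) were called with the same sign and 146 with the opposite sign. Gpnmb averaged 332 ± 103 CPM in OE, 25.7 ± 7.53 CPM in KD4 and 49.5 ± 4.04 CPM in KD6, a log2 difference of 3.16 (adjusted p = 3.4e-05). Col5a3 averaged 15.9 ± 2.76 CPM, 128 ± 11.4 CPM and 70.6 ± 8.3 CPM (-2.51, adjusted p = 4.3e-06). Pltp differed by 2.46 between OE and KD and by 1.57 between the controls, and the gap between these differences did not pass (adjusted p = 0.19). The mean of OE lay nearer to EV than to shScr in 1302 of the 1573 genes (82.8%), against 61.3% of all genes. KD4 lay nearer to shScr in 58.8% and KD6 in 58.3%, against 54.7% and 57.1% of all genes. In 537 genes OE went with EV and both KD lines with shScr, in 373 all 3 lines lay nearer to EV, and in 147 all 3 lay nearer to shScr. Since these genes were picked on the EV and shScr values, such positions are a description only.

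**Figure D4:**
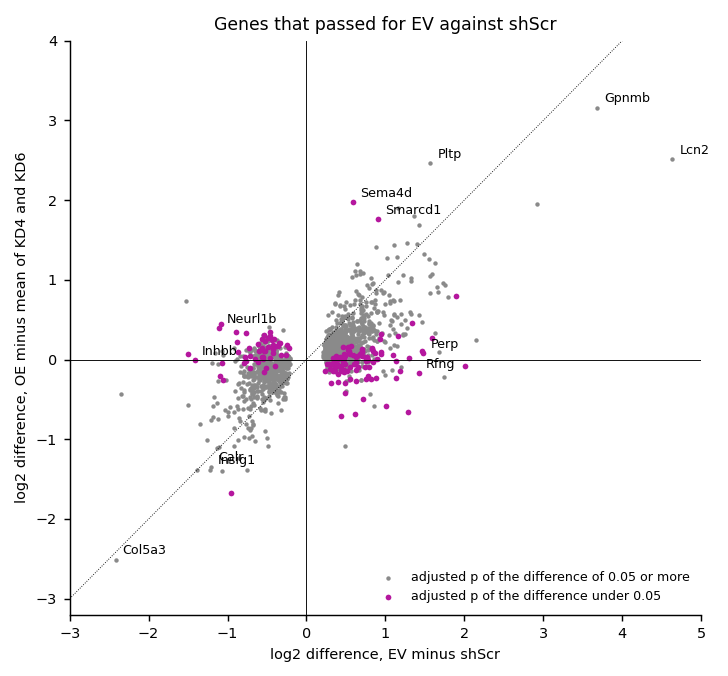
The 1573 genes that passed, with EV minus shScr on the horizontal axis and OE minus the mean of KD4 and KD6 on the vertical axis (both log2); the dotted line marks equal differences. Gpnmb, Lcn2, Calr, Insig1 and Col5a3 kept their direction, and the 152 purple genes, among them Perp, Rfng, Neurl1b, Inhbb and Smarcd1, had an adjusted p under 0.05 for the gap between both differences.

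The difference of EV minus shScr from OE minus KD was itself tested in all 15 libraries, and 250 genes (1.9%) passed. Among the 1573 genes 152 (9.66%) passed. The 1573 were picked on EV minus shScr, which is part of this test, so the 152 are a description only. Of the 250, the 5 with the smallest p fell into different patterns. Perp (above) was low in shScr alone, and Neurl1b was high in shScr alone, with 15.8 ± 2.73 CPM there and between 4.7 and 7.15 CPM on average in the other 4 lines (adjusted p of the gap = 0.001). Otud4, a deubiquitinase gene, and Tgoln1, a trans-Golgi protein gene, did not pass between EV and shScr (-0.23 ± 0.07, adjusted p = 0.057 and 0.09 ± 0.07, adjusted p = 0.41) and had their lowest mean in KD4. Otud4 averaged 267 ± 7.76 CPM in EV, 315 ± 22.6 CPM in shScr, 272 ± 9.93 CPM in OE, 109 ± 4.57 CPM in KD4 and 268 ± 9.73 CPM in KD6, and Tgoln1 334 ± 6.37 CPM, 315 ± 24.3 CPM, 351 ± 9.98 CPM, 134 ± 11.3 CPM and 277 ± 6.35 CPM. Sema4d, encoding a transmembrane semaphorin, was 1.53-fold higher in EV (log2 difference 0.59 ± 0.11 (SE), adjusted p = 0.016) and averaged 8.21 ± 0.415 CPM in KD4 and 13.6 ± 1.96 CPM in KD6 against 44.6 ± 5.18 CPM in OE. Without shScr replicate 1 the EV against shScr call for Sema4d was lost. The count of 250 fell to between 91 and 213 when 1 library was left out, except without KD4 replicate 1 (411) and KD6 replicate 3 (262).

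At the level of single transcripts, 399 of 30220 (1.32%) passed, 239 higher in EV and 160 higher in shScr, in 374 genes, of which 94 did not pass as genes. The 6 with the smallest p belonged to Gpnmb, Perp, Calr, Zfp704, Btg2 and Hspa5. Perp, Zfp704 and Btg2 had 1 listed transcript each, so transcript and gene were the same value there. In Gpnmb, Calr and Hspa5 the transcript differed in the direction of the gene. The leading Gpnmb transcript held 81.5% of the gene's CPM in EV and 73.7% in shScr, that of Calr 89.6% and 85.6%, and that of Hspa5 82.7% and 90.1%. Without 1 library the 399 became 36, 29 and 8 (without EV replicate 1, 2 or 3) and 10, 12 and 15 (without shScr replicate 1, 2 or 3).

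Use of transcripts within a gene was tested in 7077 genes with at least 2 listed transcripts, and 1417 (20%) passed by diffSplice. Of the 1417, 210 were also called as genes and 1207 were not, where 12% of all 13142 genes were called between EV and shScr. The count of 1417 depended on the test. When each transcript's log2 share of its gene was tested with limma, an alternative added after the data were seen, 1 gene passed, Nisch, which was also the gene with the smallest diffSplice p. In Nisch, encoding an imidazoline-binding scaffold protein, the transcript ENSMUST00000022469 measured 94.05, 91.6 and 104 CPM in EV and 52.9, 53.5 and 57.4 CPM in shScr and held 40.7% of the gene's CPM in EV and 22.4% in shScr (log2 share difference 0.85, adjusted p = 0.0058). OE, KD4 and KD6 held 34.8%, 29.3% and 30.7%. The other 5 genes by smallest diffSplice p, Nav3, Cep170, Nfkb1, Wdr1 and Dpp3, passed by diffSplice and did not pass by share. In Nfkb1, which encodes the p105 and p50 forms of NF-kB, ENSMUST00000029812 held 36.6% of CPM in EV and 14.4% in shScr, with 31.9, 22.3 and 25.1 CPM in EV and 8.73, 12.1 and 8.21 CPM in shScr. In Nav3, ENSMUST00000161582 measured 8.25, 6.89 and 4.08 CPM in EV and 0.521, 0.483 and 0.266 CPM in shScr. A minimum mean of 5 CPM gave 684 genes, and leaving out EV replicate 1 or 3 or shScr replicate 1 or 3 gave 533, 695, 551 and 796.

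Among the 1631 genes without a symbol in the name table, 22 were higher in EV and 212 in shScr, with a median log2 difference of -0.21, while among the 11511 genes with a symbol 928 were higher in EV and 411 in shScr, with a median of 0.037. Genes with a mean log2(CPM + 1) under 2 showed the same lean (50 higher in EV and 159 in shScr), and those over 7 the opposite one (107 and 58). Genes without a symbol took 10.4% to 11.5% of the listed CPM in EV and 11.7% to 12.4% in shScr. The gene tables, 1 for EV with OE and 1 for shScr with KD4 and KD6, whose values could have been scaled separately, gave the same direction for 1549 of 1551 genes that passed and were present there. The log2 differences of the 2 sources were more than 1.5-fold apart in 21 of the 1551. Among genes named above with so wide a gap, the EV and shScr means in the gene tables were 12.7 and 7.27 CPM (Rab43), 8.27 and 4.52 CPM (Rgl1), 11.2 and 5.59 CPM (Fos) and 16.5 and 9.48 CPM (Fosb). They were 26.2 and 6.2 CPM (Cp), 36.6 and 1.75 CPM (Lcn2), 10.6 and 3.27 CPM (Adora1) and 14.2 and 15.1 CPM (Kcnt1). Their differences were smaller there than those given above. The log2 differences there were 0.07 for Hk1, 0.09 for Eef1g and 0.10 for Prc1, against 0.34, 0.31 and 0.39 in the transcript table. Chromosome medians ran from 0.0035 to 0.064 for the nuclear chromosomes.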

How the data were processed

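Per the labels and the study's methods, mRNA libraries of 6DT1 lines were sequenced on a HiSeq2500. The authors aligned, counted and normalized the reads before deposit, and the deposited values are CPM (counts scaled to a common library size) per transcript and, in other tables, per gene. The submitters' processing notes name STAR 2.7.8a and build mm39 while the methods name other tools and an older build, so the path from reads to CPM is not settled here. CPM are not counts, values showed no whole-read steps, and depth is unknown, so no counting error is given. Another 15 per-sample columns of the transcript table matched no label and were not used, nor were columns of the authors' own comparisons. CPM of the transcripts of a gene were summed, log2(CPM + 1) was taken, and EV minus shScr was fitted with limma 3.58.1 (R 4.3.3, trended prior, 6 libraries), with Benjamini-Hochberg adjustment over all 13142 genes. OE minus the mean of KD4 and KD6 was fitted on those 9 libraries, the difference of differences on all 15, OE minus EV and each KD line minus shScr on their own libraries, transcripts like genes, and transcript use with diffSplice. A gene passed at an adjusted p under 0.05, and all p values in the text are two-sided limma p values. Symbols of 11511 of the 13142 gene IDs (87.6%) came from a name table. Named genes were Smarcd1, the 14 genes with the largest difference in each direction (passed, mean log2(CPM + 1) of at least 2, no overlap, a symbol that is no predicted gene), up to 4 members per list by lowest p, and the 5 genes, 6 transcripts and 6 genes of lowest p for the difference of differences, transcripts and transcript use. Further list members were named after their values were seen. Members and lists were chosen with earlier results of these data known. The fits were tested on simulated data, and promoter windows came from RefSeq (GRCm38.p6), without those on chromosome 18. Alternatives were another pseudocount, a minimum of 5 CPM, 2 other scalings, the fit of all libraries, no trend, a replicate block and leaving out each library. Some genes of the lists are counted but not reported here by name.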

Additional observations from a re-analysis of the deposited data

Results flagged for a closer look

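For 22 of the 154 named genes, the difference EV minus shScr differed from OE minus the mean of KD4 and KD6 (limma, adjusted p under 0.05 over 13142 genes). Of all genes 250 (1.9%) passed. Most named genes were picked on EV minus shScr, which is part of this test, and 5 on the smallest p of the test itself. The count of 22 is therefore a description only. The values below are EV minus shScr less OE minus KD, on the log2(CPM + 1) scale. Values above zero, where EV exceeded shScr by more than OE exceeded KD, were found for Rfng (1.59), Perp (1.40), Rgl1 (1.32), Gstm2 (1.30), Zfp704 (1.09), Hist1h1a (0.89), Wnt7b (0.87), Abcc3 (0.79), Dsc2 (0.73), Plau (0.48), Pdk1 (0.48), Dusp6 (0.40), Abcg2 (0.38) and Ndufa8 (0.32). Values below zero were found for Ogdhl (-1.52), Neurl1b (-1.50), Inhbb (-1.41), Sema4d (-1.39), Otud4 (-0.90), Smarcd1 (-0.86), Il2rg (-0.80) and Tgoln1 (-0.78). What set these genes apart was not tested.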

How the results depend on the processing

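With replicate numbers as a block, limma called 441 genes between EV and shScr, 256 for OE against KD, 43 for the difference of differences, 229 for KD4 and 64 for KD6 against shScr, 1 transcript and 287 genes by transcript use. Same-numbered EV and shScr libraries did not go together: they correlated at -0.25, -0.25 and -0.017 in their deviations from the group means. Whether the numbers pair libraries among the other lines, or those lines with EV or shScr, was not tested. Leaving out 1 library gave 420 to 975 genes for EV against shScr (1573 with all), 225 to 1052 for OE against KD (845), 91 to 411 for the difference of differences (250), 204 to 648 for KD4 (704) and 66 to 201 for KD6 (239) against shScr, 8 to 36 transcripts (399) and 533 to 1138 genes by use (1417). Use gave 684 genes with at least 5 CPM and 1 gene by log2 share, a test added after the data were seen, and the cause was not tested. For EV against shScr the other settings gave 1310 (5 CPM), 1385 (no trend), 1438 (quantiles), 1520 (pseudocount 0.1), 1689 (median of ratios) and 2078 genes (15 libraries), and no gene called with all libraries reversed. Of the calls, 60.4% were higher in EV, against 47.0% under the median of ratios and 52.2% under quantiles. The marker genes without a call that changed sign were Acta2 (-0.11 to 0.25 with 1 library left out) and Pdgfra (-0.059 to 0.24). Limma called 0 genes for OE against EV in every setting run. Depth is unknown, so precision rests on 3 libraries per line.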

Other observations

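The other lists held few genes that passed and several calls that were lost when 1 library was left out. Counts are to be read against the 7.23% of all genes higher in EV and the 4.74% higher in shScr. Of 20 measured inflammatory and NF-kB genes, Lcn2, the adhesion molecule Vcam1 (0.70 ± 0.11, adjusted p = 0.0099) and the cytokine Csf1 (0.36 ± 0.08, adjusted p = 0.029) were higher in EV, while the cyclooxygenase gene Ptgs2 (-0.70 ± 0.10, adjusted p = 0.0054) and the chemokine Cxcl16 (-0.55 ± 0.12, adjusted p = 0.024) were higher in shScr, with limma's adjusted p over all genes. Of 23 genes of the integrated stress response, Atf4, its main transcription factor (-0.30 ± 0.06, adjusted p = 0.018), and Cebpb (-0.58 ± 0.16, adjusted p = 0.047) were higher in shScr, and Vldlr (0.69 ± 0.09, adjusted p = 0.0054) and Gadd45a (0.63 ± 0.14, adjusted p = 0.025) were higher in EV. The list's median of 0.01 turned to -0.03 under scaling by the median of ratios. Of 29 NRF2 and glutathione genes, Gss and Gstm2 were higher in EV, and the ferritin gene Fth1 and the malic enzyme gene Me1 were higher in shScr. Of 49 splicing factors 3 passed (6.12%, against 12% of all genes), Srsf9 higher in EV and Prpf3 and Hnrnpd higher in shScr.

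The call was lost in every one of the 6 fits without 1 library for Cebpb, Fth1, Srsf9, Tgfbr1 and the luminal gene Cd14, and in 5 of 6 for Cxcl16, Gadd45a, Me1, Hnrnpd, Tgfbr2, Igf1r, Cav2, Nop16, H2afz and Gata3. The NRF2 and glutathione list then held 0 to 2 genes higher in EV and 0 to 1 higher in shScr, with 0 and 0 without EV replicate 1 or 3 or shScr replicate 1 or 3. Counts for EV and shScr were 2 to 3 and 1 to 2 for inflammatory and NF-kB genes, 1 to 2 and 0 to 1 for the integrated stress response and 0 and 0 to 2 for splicing factors.

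Of 19 mesenchymal genes, Sparc, Tgfbr1 and Tgfbr2 were higher in shScr and 0 in EV. The list as a whole did not lean that way: the mean was higher in EV in 12 genes and higher in shScr in 7, with a median of 0.043. Of 19 receptor tyrosine kinases, Mertk and Ephb2 were higher in EV and Igf1r in shScr. Of 20 cytokine receptors, Il13ra1 was higher in EV and Il2rg in shScr. Of 27 integrin and focal adhesion genes, Itgb5 and Cav2 were higher in EV, and of 26 ribosome biogenesis genes, Rrp1b and Nop16. Hist1h1a and H2afz were higher in EV among 16 histone genes, and Mxd4 among 18 genes of the Myc network, in which Myc itself did not pass (-0.04 ± 0.08, adjusted p = 0.77). Without 1 library these counts for EV and shScr were 0 to 1 and 0 to 2 (mesenchymal), 2 to 3 and 0 to 1 (receptor tyrosine kinases), 0 to 1 and 1 (cytokine receptors), 1 to 2 and 0 (integrins), 0 to 2 and 0 (ribosome biogenesis), 0 to 2 and 0 (histones) and 0 to 1 and 0 (Myc network). Among 6 luminal markers Cd14 was higher in EV with all libraries (0.32 ± 0.09, adjusted p = 0.045), but did not pass under quantile normalization, scaling by the median of ratios or the fit of all 15 libraries, and Gata3 was higher in shScr (-0.43 ± 0.09, adjusted p = 0.027). The luminal counts without 1 library were 0 and 0 to 1. Of the 3 basal, 2 fibroblast and 1 endothelial markers listed 0 passed.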
